A study of Homo sapiens with 3 samples.

Results

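PER1, PER2, PER3, CRY1 and CRY2 encode the period and cryptochrome repressors of the circadian clock, and the peaks of BMAL1 and MAX at these 5 genes were collected from a ChIP-seq experiment in MDA-MB-231 cells. A peak was assigned to a gene where its summit, the position of highest signal, lay in the gene body or within 20 kb of 1 of its annotated transcription start sites (TSSs). By this rule, 7 of 756 BMAL1 peaks and 13 of 13650 MAX peaks belonged to the 5 genes. All 5 genes had a BMAL1 peak, against 4.99% of the 20098 protein-coding genes of the annotation, and 4 of the 5 had a MAX peak, against 54.9%. Overlapping peaks of both factors were listed at 4 of the 5, against 4.45%, and 2 of them, PER1 and CRY2, held 2 BMAL1 peaks, against 0.338% of genes with at least that many. The genes were chosen with these lists known, so the counts describe them and carry no test.

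In the circadian feedback loop, the basic helix-loop-helix activators CLOCK and BMAL1 bind E-boxes as a dimer and drive transcription of the PER and CRY genes. PER and CRY proteins then accumulate, enter the nucleus and inhibit that same dimer, so the promoters of these genes are where the loop closes. MAX is the obligate dimerization partner of MYC and of repressors such as MNT, and its dimers bind the same E-box. PER transcription also receives input through D-boxes, which PAR bZIP activators such as DBP and the repressor NFIL3 bind, and through cAMP response elements, which CREB binds.

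MDA-MB-231 is an established line of human triple-negative breast cancer. Its chromatin, cross-linked for 10 min in 1% formaldehyde, was precipitated with 4 µg of an antibody to BMAL1 or to MAX, and input chromatin served both as control. There was 1 library of each kind, with no treatment, genotype or time course among them, so no value below has a replicate and no difference between conditions could be tested. Duplicates were limited to at most 2 tags for BMAL1 and 1 for MAX. After this step, 13866783 BMAL1 tags, 11545865 MAX tags and 29308882 input tags were used for peak calling.

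Each peak carries a pileup, the number of fragments stacked at its summit, and a fold enrichment, the ratio of that pileup to the local background expected from the input. Ranges in brackets are exact Poisson 95% intervals of the pileup, or the same divided by the background, and they cover counting error only. Over the whole lists the median fold enrichment was 10.3 for BMAL1 and 9.73 for MAX. The median of the 7 BMAL1 sites was 47.4, above 97.4% of BMAL1 peaks. The sites ran from rank 2 of the BMAL1 list down to rank 227 at PER3, with the other 6 at rank 40 or better. The median of the 13 MAX sites was 10.2, above 57.2% of MAX peaks by fold enrichment but 85.9% by pileup, and it was 22.6 over the 7 MAX sites that overlapped a BMAL1 peak. The MAX sites ran from rank 2 of their list to a peak above only 2.28% of it.

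The reference sequences under the summits are shown because the sites differ in which element lies closest to the BMAL1 signal. Coordinates refer to hg19 (GRCh37), and each stretch is written 5′ to 3′ along its gene, with capitals marking the E-box CACGTG, the E′-box CACGTT, which reads AACGTG on the opposite strand, the D-box TTATGTAA or TTACGTAA and the cAMP response element TGACGTCA. Distances between an element and a summit are counted to the centre of the element and rounded down.
PER1 5′ end, chr17:8059825-8060061, minus strand: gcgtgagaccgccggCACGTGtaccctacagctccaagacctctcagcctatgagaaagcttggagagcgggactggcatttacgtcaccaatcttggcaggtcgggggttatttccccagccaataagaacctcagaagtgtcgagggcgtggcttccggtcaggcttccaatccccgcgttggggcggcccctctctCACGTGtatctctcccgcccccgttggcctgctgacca
PER1 intron, alternative TSS, chr17:8055839-8055939, minus strand: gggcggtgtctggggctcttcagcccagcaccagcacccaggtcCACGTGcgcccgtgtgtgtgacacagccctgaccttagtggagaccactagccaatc
PER1 intron, MAX peak without BMAL1, chr17:8057620-8057687, minus strand: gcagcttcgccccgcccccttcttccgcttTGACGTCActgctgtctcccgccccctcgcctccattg
PER2 BMAL1 summit, chr2:239197517-239197637, minus strand: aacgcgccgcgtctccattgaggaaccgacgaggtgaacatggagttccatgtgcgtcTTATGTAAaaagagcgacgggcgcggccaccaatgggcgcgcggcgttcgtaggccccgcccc
PER2 E′-box, inside the first exon of the shorter transcripts, chr2:239197431-239197460, minus strand: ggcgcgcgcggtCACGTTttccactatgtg
PER2, second MAX peak, chr2:239198070-239198135, minus strand: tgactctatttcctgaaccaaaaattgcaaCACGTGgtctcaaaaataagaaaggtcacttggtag
PER3, chr1:7843917-7844191, plus strand: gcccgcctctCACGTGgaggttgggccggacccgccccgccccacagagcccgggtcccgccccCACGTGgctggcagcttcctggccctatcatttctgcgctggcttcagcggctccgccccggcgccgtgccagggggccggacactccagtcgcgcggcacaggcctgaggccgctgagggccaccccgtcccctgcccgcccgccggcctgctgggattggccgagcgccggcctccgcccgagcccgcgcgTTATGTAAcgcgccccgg
CRY1, BMAL1 summit to E′-box, chr12:107487396-107487654, minus strand: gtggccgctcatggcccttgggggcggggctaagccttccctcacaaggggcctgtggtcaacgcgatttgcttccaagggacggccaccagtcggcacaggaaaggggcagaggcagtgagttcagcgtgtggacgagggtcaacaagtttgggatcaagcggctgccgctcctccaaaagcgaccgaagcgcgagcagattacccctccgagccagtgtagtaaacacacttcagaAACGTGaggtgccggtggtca
CRY2 5′ end, chr11:45868801-45868902, plus strand: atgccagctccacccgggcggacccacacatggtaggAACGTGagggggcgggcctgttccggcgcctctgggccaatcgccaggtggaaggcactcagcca
CRY2 intron, chr11:45881391-45881491, plus strand: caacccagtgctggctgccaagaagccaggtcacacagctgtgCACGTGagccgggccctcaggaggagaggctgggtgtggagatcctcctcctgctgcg

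At the PER1 pairs, PER3 and the CRY2 intron the capitals nearest the summit read CACGTG, at PER2 they read TTATGTAA, and at the 5′ ends of CRY1 and CRY2 they read AACGTG. Around the PER2 E′-box only 30 bases are given, since it lies in untranslated sequence.

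PER1 (ENSG00000179094.16_13, chr17:8043790-8059824, minus strand), the period gene with rapid induction by light and hormonal signals, carried the strongest binding of both factors among the 5 genes. The BMAL1 peak at its 5′ end (chr17:8059319-8060573) rested on 440 fragments [399.8 to 483] and had a fold enrichment of 111 [101 to 122], rank 2 of the BMAL1 list. The MAX peak there (chr17:8059356-8060352) rested on 170 fragments [145 to 198] and had a fold enrichment of 53.9 [46.1 to 62.7], also rank 2 of its list. The intervals of this site did not overlap those of any other PER or CRY site for the same factor. The BMAL1 summit lay 23 bp upstream of the annotated 5′ end and 12 bp from an E-box, while the MAX summit lay 82 bp further along the gene, inside the 5′ UTR and 94 bp from the same E-box. A second E-box lay 196 bp and a D-box 594 bp upstream of the BMAL1 summit, the latter inside the BMAL1 peak and outside the MAX peak. The local background in the BMAL1 comparison was 2.58 times the genome-wide level at this site, the highest of the 7 BMAL1 sites. An unnamed protein-coding gene model overlaps this region on the same strand, so the peak cannot be assigned to PER1 transcripts alone. The nearest TSS of any other protein-coding gene lay 6403 bp from the BMAL1 summit.

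A second pair of peaks lay in a PER1 intron, 3945 bp into the gene and 126 bp upstream of an alternative TSS. BMAL1 (chr17:8055355-8056351) had 119 fragments [98.6 to 142] and a fold enrichment of 37.8 [31.3 to 45.2], rank 28. MAX (chr17:8055561-8056322) had 59 fragments [44.9 to 76.1] and a fold enrichment of 22.6 [17.2 to 29.1], rank 314. Each factor was thus lower here than at the 5′ end, with intervals that did not overlap. A single E-box lay between the summits, 13 bp from that of BMAL1 and 42 bp from that of MAX, and a second one 448 bp from the BMAL1 summit fell in the BMAL1 peak only.

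The other 4 MAX peaks of PER1 overlapped no BMAL1 peak. One was intronic (chr17:8057519-8058004), 2099 bp from the 5′ end, with 29 fragments and a fold enrichment of 10.2 [6.84 to 14.7]. It held no E-box or E′-box but a cAMP response element 71 bp from its summit, an element found in 2.33% of all MAX peaks. The peak past the 3′ end of the gene (chr17:8042168-8042674) had a fold enrichment of 6.0 [3.92 to 8.79] over a background 3.38 times the genome-wide level. The remaining pair belonged to PER1 only by distance, since 1 summit lay 1560 bp from a TSS of HES7 and the other 2921 bp from a TSS of TMEM107, and their fold enrichments were 6.13 and 5.33.

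PER2 (ENSG00000132326.13_9, chr2:239152685-239198743, minus strand), whose protein carries CRY into the repressor complex and whose phosphorylation sets the pace of the clock, had 1 BMAL1 peak and a pair of MAX peaks at its 5′ end. The BMAL1 peak (chr2:239197258-239197942) had 105 fragments [85.9 to 127] and a fold enrichment of 47.4 [38.8 to 57.4], rank 20. The BMAL1 summit was in an intron of the longest transcript and 110 bp before the TSS of shorter ones. The overlapping MAX peak (chr2:239197426-239197849) had 28 fragments [18.6 to 40.5] and a fold enrichment of 15.2 [10.1 to 22.0], rank 1647. The second MAX peak (chr2:239197929-239198228) had 14 fragments and a fold enrichment of 5.64 [3.08 to 9.46], and it met the BMAL1 peak over only 14 bp. The only CACGTG in the PER2 peaks lay in this weak one, 52 bp from its summit, while the BMAL1 peak held an E′-box, at 131 bp from the summit of BMAL1 and 196 bp from that of the paired MAX peak. The BMAL1 summit itself fell inside a D-box (chr2:239197572-239197579), and next to it CATGTG, a hexamer that differs from the E-box by 1 base, lay 9 bp from the summit.

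CRY1 (ENSG00000008405.12_9, chr12:107385142-107487327, minus strand), the stronger and later-acting cryptochrome repressor, had a single BMAL1 peak (chr12:107487012-107488025) with 143 fragments [121 to 168] and a fold enrichment of 75.6 [63.7 to 89.0], rank 7. The overlapping MAX peak (chr12:107487234-107488118) had 41 fragments [29.4 to 55.6] and a fold enrichment of 26.0 [18.7 to 35.3], rank 144. Both summits lay upstream of the 5′ end of the gene, at 287 bp for BMAL1 and 302 bp for MAX. The single E′-box in these peaks lay 200 bp from the BMAL1 summit, 86 bp upstream of the TSS, so that neither summit had an E-box or E′-box within 100 bp. The nearest hexamer with 1 mismatch to the E-box was CCCGTG at 75 bp. The other MAX peak assigned to CRY1 lay 147 bp from a TSS of the neighbouring gene MTERF2, with a fold enrichment of 14.4 and no BMAL1 peak.

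CRY2 (ENSG00000121671.12_11, chr11:45868669-45904799, plus strand), the other cryptochrome repressor, had a pair of sites bound by both factors. At its 5′ end the BMAL1 peak (chr11:45868409-45869271) had 224 fragments [196 to 255] and a fold enrichment of 75.2 [65.6 to 85.7], rank 8, and the MAX peak (chr11:45868510-45869100) had 70 fragments [54.6 to 88.4] and a fold enrichment of 26.9 [21.0 to 34.0], rank 120. The BMAL1 summit lay in a coding exon, 143 bp downstream of the first TSS, and an E′-box lay 28 bp from the former and 11 bp from the MAX summit. The fold enrichments of CRY1 and CRY2 were close, and their intervals overlapped for both factors. By pileup the CRY2 site was higher for BMAL1, 224 against 143 fragments with intervals that did not overlap, over a local background 1.93 times the genome-wide level at CRY2 and 1.23 times at CRY1.

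The intronic CRY2 site lay 12762 bp from the 5′ end. BMAL1 (chr11:45881068-45881720) had 77 fragments [60.8 to 96.2] and a fold enrichment of 30.1 [23.8 to 37.7], rank 40. MAX (chr11:45881157-45881456) had 18 fragments [10.7 to 28.4] and a fold enrichment of 7.62 [4.52 to 12.04], above 20.1% of MAX peaks. The BMAL1 summit was 5 bp from an E-box and the MAX summit 148 bp from it, whereas at the PER1 pairs the nearest E-box was 42 and 94 bp from the MAX summit. Another MAX peak of CRY2, in an intron 25978 bp from the 5′ end (chr11:45894411-45894845), had 13 fragments, a fold enrichment of 6.60 and no BMAL1 peak.

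PER3 (ENSG00000049246.15_8, chr1:7844351-7905237, plus strand), the period gene with the least effect on the core rhythm when lost, had the weakest BMAL1 site and no MAX site. Its BMAL1 peak (chr1:7843867-7844193) had 20 fragments [12.2 to 30.9] and a fold enrichment of 12.98 [7.93 to 20.05], rank 227, with the summit 319 bp upstream of the 5′ end. By fold enrichment it stood above 69.6% of BMAL1 peaks, and by pileup above 29.8%, since its background was at the genome-wide level of 1.54 fragments. Its interval did not overlap that of any other PER or CRY site of BMAL1. In sequence the PER3 peak was not poorer in elements, with 2 E-boxes, 48 bp and 102 bp from the summit, and a D-box at 145 bp.

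The depth of the MAX library limits what the missing peak at PER3 shows. At a genome-wide background of 1.28 MAX fragments, a pileup of 8, or a fold enrichment of 6.24, would have passed the cutoff in the file header, a −log10 p of 5. By this cutoff alone, an unlisted site with that background had at most 7 fragments. The lowest MAX pileup in the list was 9, so a site with 8 fragments may also have gone unlisted. At the other sites of these genes the MAX pileup was 0.234 to 0.496 of the BMAL1 pileup, which for 20 BMAL1 fragments corresponds to 4.68 to 9.92 MAX fragments. That range spans the limit, and whether MAX bound PER3 below it was not tested. The proportions come from sites with 77 to 440 BMAL1 fragments and may not hold at 20. Over the whole list, 214 of the 265 BMAL1 peaks with 20 fragments or fewer did overlap a MAX peak (80.8%, Wilson 95% interval 75.6% to 85.0%). At those 214 the median MAX pileup was 24 and the lowest 11. Of the 40 BMAL1 peaks with exactly 20 fragments, 28 overlapped a MAX peak. The MAX summit nearest to the PER3 peak lay 138464 bp away, and 23 of the 120 BMAL1 peaks without MAX had a higher fold enrichment than PER3.

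**Figure D1:**
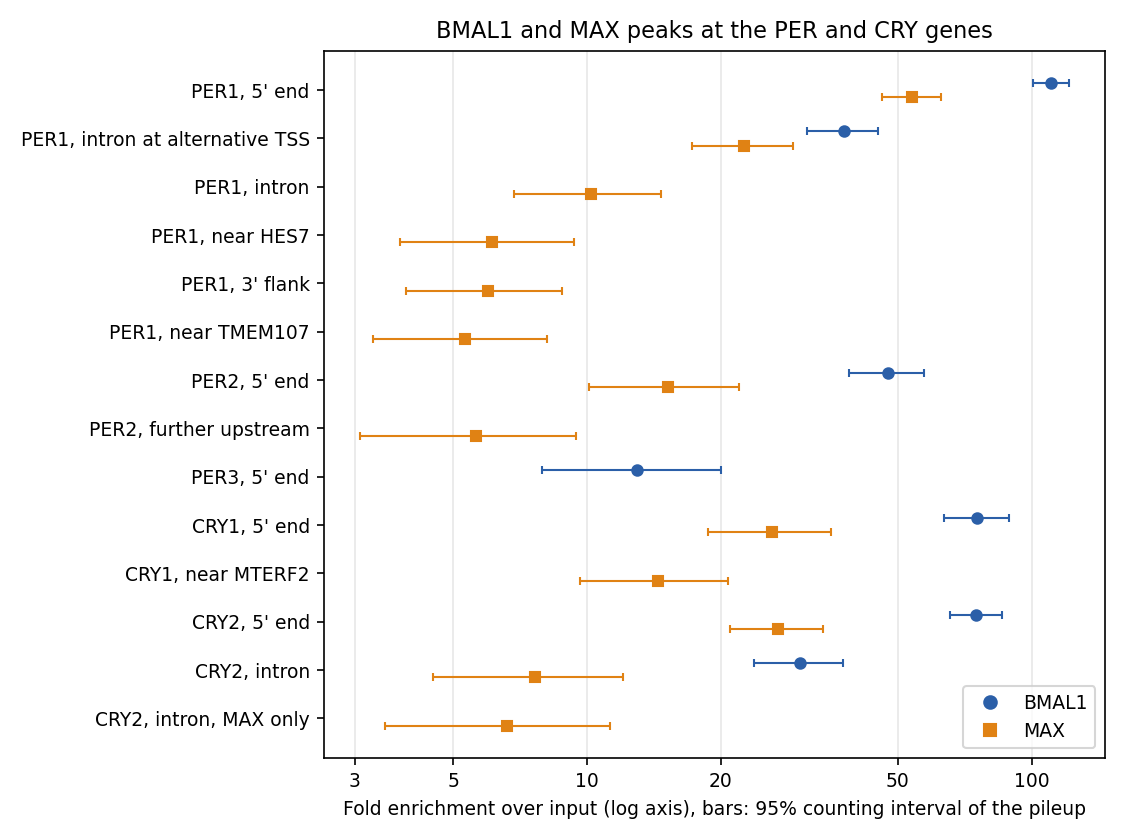
Fold enrichment over input (log axis) of every BMAL1 (circles) and MAX (squares) peak at the PER and CRY genes, 1 row per site and 1 library per factor, with bars for the 95% counting interval of the pileup. BMAL1 runs from 12.98 at PER3 to 111 at the PER1 5′ end, MAX from 5.33 to 53.9, and wherever both are drawn in a row the BMAL1 point lies to the right.

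Ordered by BMAL1 fold enrichment at the strongest site, the genes ran PER1, CRY1, CRY2, PER2 and PER3. Only CRY1 and CRY2 had overlapping intervals among neighbours in this order. For MAX the order was PER1, CRY2, CRY1 and PER2, and again CRY1 and CRY2 overlapped. The interval of PER2 (10.1 to 22.0) also overlapped those of CRY1 (18.7 to 35.3) and CRY2 (21.0 to 34.0) for MAX. For MAX, only the interval of PER1 overlapped none of those of the other 3 genes. An overlap of intervals does not settle whether fold enrichments differ, and PER2 was not tested against CRY1 or CRY2 directly.

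BMAL1 and MAX peaks overlapped at 6 of the 7 BMAL1 sites, against 84.1% of all BMAL1 peaks, so this count is near the background. Seen from MAX, 7 of its 13 peaks overlapped a BMAL1 peak, against 4.67% of all MAX peaks. Those 7 had fold enrichments of 5.64 to 53.9 with a median of 22.6, and the other 6 had 5.33 to 14.4 with a median of 6.37. All 7 held an E-box or E′-box within the peak, compared with 1 of the other 6 and 38.6% of all MAX peaks. Of the other 6, 3 lay nearer to a TSS of another gene, among them the 1 with an element. The groups were not matched for peak length. The strongest MAX peaks of these genes were thus those under BMAL1 peaks, but the groups overlapped in fold enrichment through the second PER2 peak (5.64) and the CRY2 intron (7.62).

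At all 6 paired sites the BMAL1 fold enrichment exceeded that of MAX. The ratio of BMAL1 to MAX fold enrichment was 1.67 [1.21 to 2.32] at the PER1 intron and 2.05 [1.72 to 2.46] at the PER1 5′ end. It was 2.79 [2.13 to 3.71] at the CRY2 5′ end, 2.90 [2.04 to 4.22] at CRY1 and 3.12 [2.04 to 4.92] at PER2. It reached 3.96 [2.34 to 7.02] at the CRY2 intron, where the MAX peak was the weakest of the 6. These intervals are exact binomial 95% intervals of the paired pileups, divided by the background ratio. The BMAL1 library held 1.2 times as many tags as the MAX library, which the background term of each fold enrichment takes into account. The limit on duplicate tags also differed, 2 for BMAL1 and 1 for MAX, and its effect on the ratios was not tested. The PER1 intron had the lowest ratio, and its interval overlapped those of all others except the CRY2 intron. Overlapping intervals do not settle whether 2 ratios differ, and the order within the 6 was not tested.

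Across all 636 overlapping pairs the median ratio was 0.793 (quartiles 0.562 and 1.18), and 222 pairs (34.9%) had a ratio above 1. The PER and CRY sites stood higher, each above at least 89.5% of the pairs, with a median of 2.85. Since the ratio has the BMAL1 fold enrichment as its numerator, the sites were also set beside pairs of like BMAL1 strength. Among the 32 other pairs with a BMAL1 fold enrichment of at least 30.1, the lowest of the 6 sites, all ratios lay between 1.35 and 6.96 with a median of 2.37. Of these 32 pairs, 7 had a ratio below that of the PER1 intron, 20 below the CRY2 5′ end and 28 below the CRY2 intron. Beside other strong BMAL1 peaks, the ratios of the 6 sites therefore lay within the range.

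**Figure D2:**
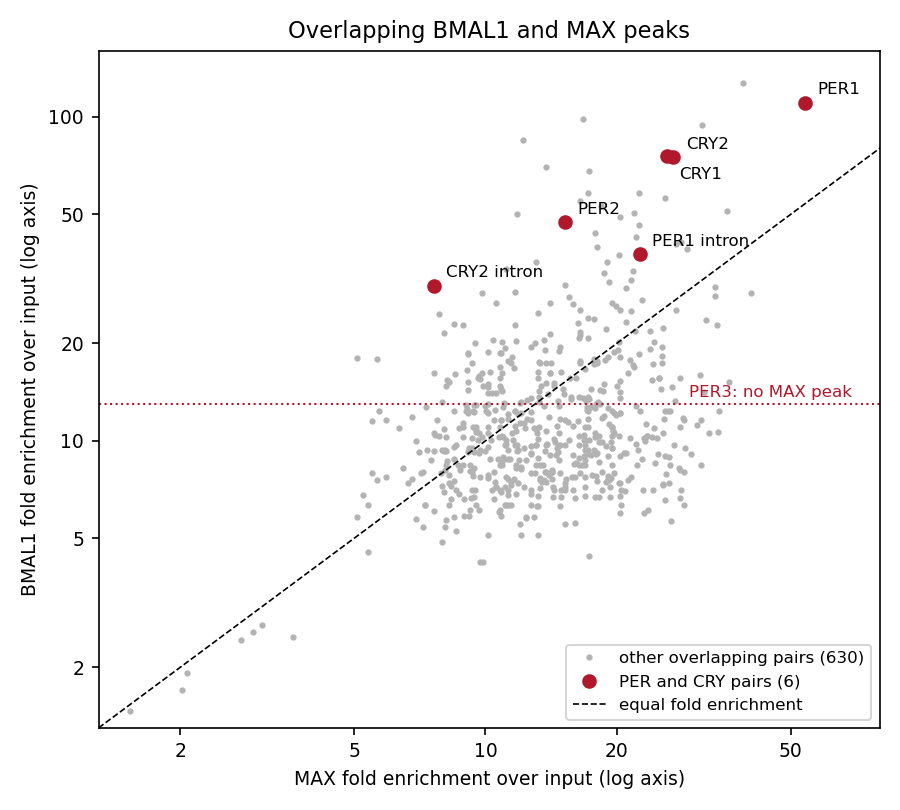
BMAL1 against MAX fold enrichment over input (both log axes) for the 636 overlapping pairs, with the 6 PER and CRY pairs in red, the line of equal enrichment dashed and the BMAL1 level of PER3, which has no MAX peak, dotted. All 6 red points lie above the dashed line, from 30.1 against 7.62 at the CRY2 intron to 111 against 53.9 at PER1.

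**Figure D3:**
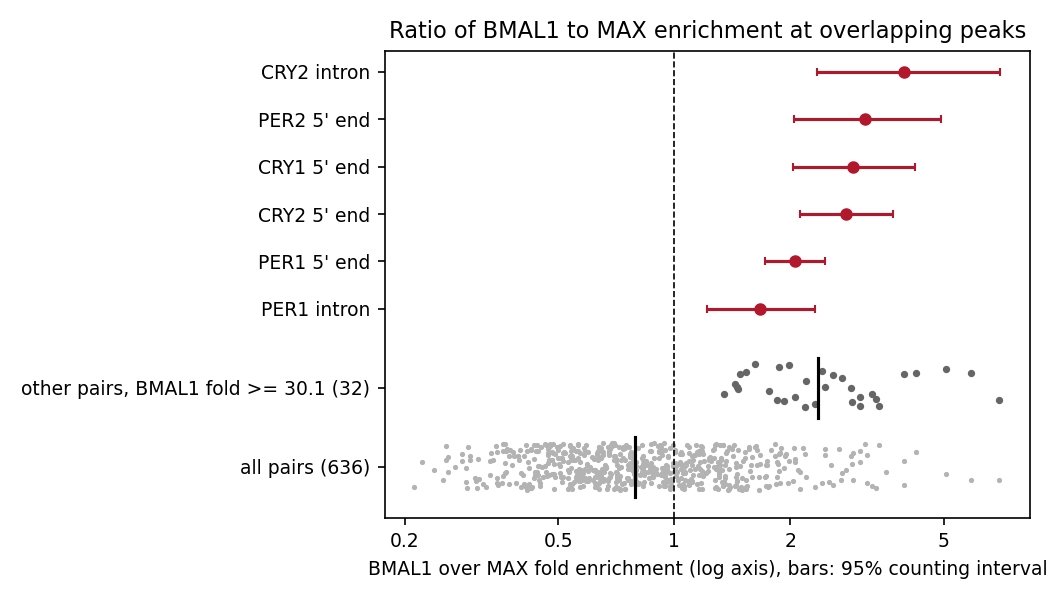
Ratio of BMAL1 to MAX fold enrichment (log axis) at the 6 PER and CRY pairs with 95% counting intervals (red), at the 32 other pairs with a BMAL1 fold enrichment of at least 30.1 and at all 636 pairs (1 point per pair, black line at the median). The red points run from 1.67 to 3.96 and fall within the 1.35 to 6.96 of the 32 other strong pairs, whereas the median of all pairs is 0.793.

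The BMAL1 and MAX summits of a pair lay close together, and the offset had no common direction along the genes. The distance was 15 bp at CRY1, 17 bp at the CRY2 5′ end, 56 bp at the PER1 intron, 65 bp at PER2, 82 bp at the PER1 5′ end and 143 bp at the CRY2 intron. The median of 60.5 bp was near the 54 bp of all 636 pairs. The MAX summit was downstream of the BMAL1 summit at the 5′ ends of PER1 and CRY2 and upstream at the other 4 sites. Tags were extended to 300 bp, and no replicate gives the error of a summit position.

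**Figure D4:**
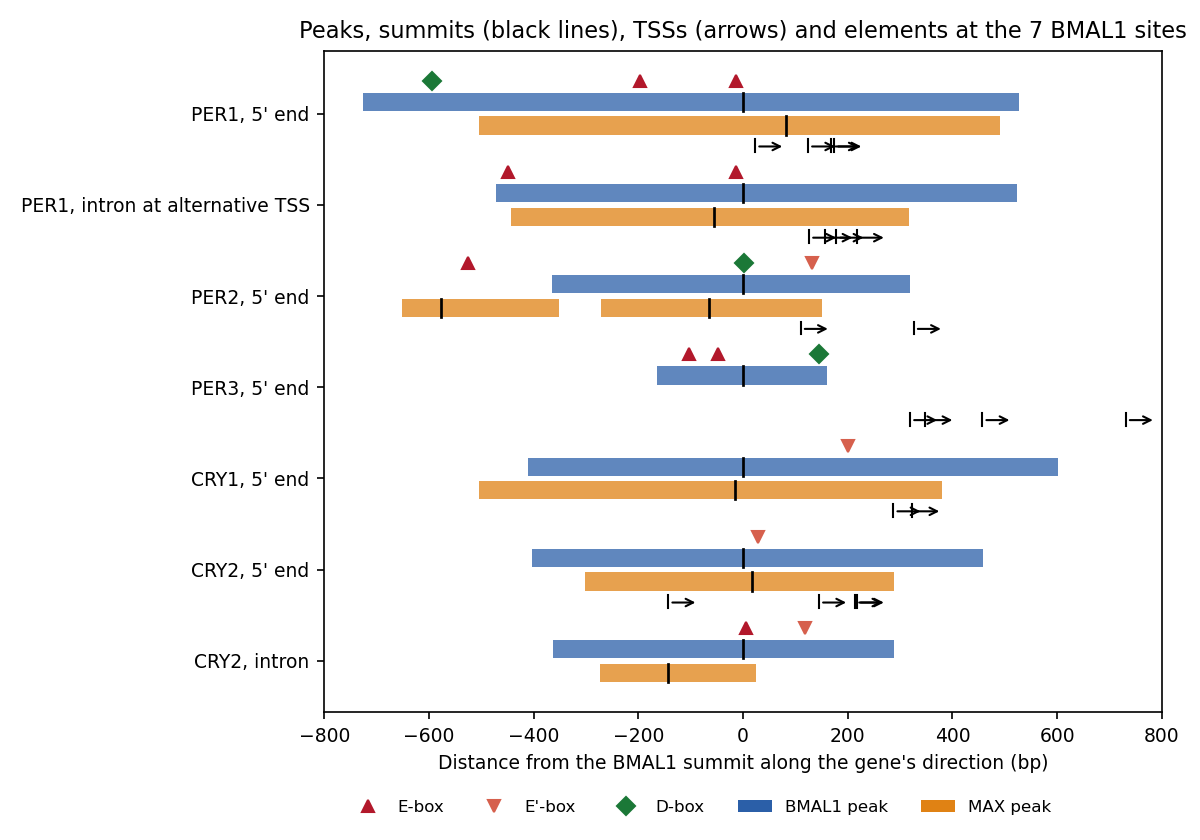
The 7 BMAL1 sites drawn along the direction of each gene, with distance from the BMAL1 summit in bp on the horizontal axis, BMAL1 peaks in blue, MAX peaks in orange, black lines at summits, arrows at annotated TSSs and markers for the elements. An E-box lies 5 to 13 bp from the BMAL1 summit at the 2 PER1 sites and the CRY2 intron, the summit falls inside a D-box at PER2, and the nearest E′-box at CRY1 is 200 bp away.

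CACGTG was searched on both strands in windows of 100 bp to either side of each summit. It occurred at 4 of the 7 BMAL1 sites, against 75.4% of all BMAL1 summits and 3.04% of windows 2 kb away. With the E′-box CACGTT counted as well, 5 of the 7 sites held an element, against 80.4%. These counts are near or below the background, although 6 of the 7 sites are among the 76 BMAL1 peaks of highest fold enrichment, of which 82.9% had CACGTG in the window. Among those 76 peaks, 13 lacked CACGTG, and 3 of them were PER2, CRY1 and the CRY2 5′ end. When E′-boxes were counted too, 11 lacked both, including PER2 and CRY1. Within the whole peak all 7 sites held an E-box or E′-box, as did 87.0% of BMAL1 peaks. For MAX, 3 of the 13 summits had CACGTG in the window, against 21.2%.

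A tandem arrangement, in which a CACGTG is followed or preceded after 6 or 7 bases by a second CACGTG with at most 1 mismatch, was found at 0 of the 7 BMAL1 sites, against 7.54% of all BMAL1 summits. Such pairs of E-boxes are known as preferred sites of CLOCK and BMAL1 dimers. The search needs a CACGTG in the window, which PER2, CRY1 and the CRY2 5′ end lacked, so only 4 of the 7 sites could score. At PER2 the E′-box, 131 bp from the BMAL1 summit and outside the window, is followed after 6 bases by TATGTG, which the search does not count. At the CRY2 5′ end, the hexamer CACATG lay 17 bp from the BMAL1 summit and the E′-box 28 bp from it, a pair that this search does not count, since neither is CACGTG and their spacing is shorter than the rule requires.

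All 3 period genes, and neither cryptochrome gene, held a D-box in a BMAL1 peak. The element lay inside the BMAL1 peaks of the PER1 5′ end, PER2 and PER3, which is 3 of the 7 sites, against 1.98% of BMAL1 peaks (15 of 756). Longer peaks hold more sequence, and the BMAL1 peaks of these genes had a median length of 863 bp against 406 bp. Of the 25 BMAL1 peaks of at least 863 bp, 2 (8%) held a D-box, PER1 being 1 of them, while the peaks of PER2 (685 bp) and PER3 (327 bp) were shorter than that. The position differed among the 3 period genes, since it contained the BMAL1 summit at PER2 and lay 145 bp from it at PER3 and 594 bp at PER1. A match to these letters is a description of the sequence and was not tested as a binding site.

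Outside the PER and CRY genes, 25 other clock genes were counted by the same rule. A BMAL1 peak was listed at 9, a MAX peak at 16 and an overlapping pair at 7, against 4.99%, 54.9% and 4.45% of all protein-coding genes, so that the MAX count is near the background. None of the 4 activator genes (CLOCK, BMAL1, NPAS2 and ARNTL2) had a BMAL1 peak, and 2 had a MAX peak. Of the 5 nuclear receptor genes of the stabilizing loop 3 had a BMAL1 peak, of the PAR bZIP factors and their antagonist NFIL3 2 of 4, and of the other repressors 3 of 4. Of the 7 genes listed for enzymes and ligase subunits that modify PER and CRY proteins 1 had a BMAL1 peak, CSNK1D, the casein kinase that phosphorylates PER. That list includes a pseudogene of a ligase subunit, which had no peak of either factor, although the shares above are of protein-coding genes. TIMELESS had a MAX peak only.

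The pattern most like that of these genes was sought outside the clock lists, as the smallest log2 distance from the median of the strongest PER and CRY pairs (a fold enrichment of 75.4 for BMAL1 and 26.5 for MAX, over 4 genes) among 484 candidate sites. The nearest was a site 1909 bp from a TSS of MMRN2 (chr10:88730635-88731811), with 76.1 for BMAL1 and 26.5 for MAX, which the rule also assigns to ADIRF and SNCG. It was followed by NR6A1 (chr9:127533594-127534557), with 58.2 and 22.5, and GET4 (chr7:915657-916268), with 50.6 and 21.8. All 3 sites held CACGTG within 100 bp of the BMAL1 summit, unlike the strongest sites of PER2, CRY1 and CRY2. The clock genes left out of this search held strong pairs as well. Among the 7 other clock genes with a pair, the strongest BMAL1 fold enrichment ran from 15.32 at BHLHE40 to 126.82 at NR1D1. DBP had 94.57 for BMAL1 and 31.25 for MAX, and BHLHE41 had 56.36 and 25.75.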

How the data were processed

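BMAL1 and MAX ChIP-seq libraries of MDA-MB-231 cells (1 each, with 1 shared input) were analysed from the deposited MACS2 peak lists. The authors aligned the reads to hg19 with BWA 0.6.2 and ran MACS2 2.0.9 for each antibody. Per the file headers, the pileup is the signal (coverage by fragments of 300 bp) at the summit, not scaled per tag. The deposited fold enrichment is the ratio of pileup to local background, and the authors' caller also wrote the −log10 p-value and −log10 q-value. The methods state a threshold of 1e-08 and the headers 1e-05, and no listed peak was left out. At 1e-08 all 7 BMAL1 sites and 11 of the 13 MAX sites remained. The MAX peaks that fell short were the second PER2 peak (−log10 p of 7.2) and the CRY2 peak without BMAL1 (7.61).

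Peaks were assigned with GENCODE release 44 mapped to GRCh37. Overlap required 1 bp, and a BMAL1 peak that met several MAX peaks was paired with the 1 sharing most bases. The background was computed as pileup over fold enrichment. Elements were searched on both strands of the reference genome. The genes, lists and motifs were chosen with earlier results of these data known, so the values are descriptions. The named genes were the 5 PER and CRY genes, neighbours with a TSS nearer to a peak and the 3 most similar pairs. Other clock genes were taken as counts, of which CSNK1D, NR1D1, DBP, BHLHE40 and BHLHE41 were named after their values were seen. Alternatives covered the p-value, distance, overlap, enrichment measure, window and motif. The steps were tested on simulated data. Calculations were made in Python 3.11.15 (scipy 1.17.1, pandas 2.3.3, numpy 2.4.6, pysam 0.24.0).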

Additional observations from a re-analysis of the deposited data

How the results depend on the processing

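Of 35 values recomputed under other settings, 29 stayed within the limit set for a change and 6 moved. MAX sites numbered 8 at p of 1e-12 or less and 23 within 50 kb of a TSS, against 13. The median BMAL1 fold enrichment was 75.15 over the strongest site of each gene, against 47.42. The MAX median was 26.47 over the strongest sites and 22.59 over sites under a BMAL1 peak, against 10.22, and by pileup the median MAX site stood above 85.86% of its list, against 57.16% by fold enrichment. Those changes follow from the sites or the measure chosen. Some values within the limit shifted as well. By −log10 p the median MAX site stood above 82.3% of its list. CANNTG, with N for any base, lay near 6 of the 7 BMAL1 summits, against 94.2% of all BMAL1 summits, where CACGTG lay near 4. The count restricted to MAX peaks nearest to a TSS of these genes (10) was added after the data were seen. BMAL1 sites numbered 7 or 8 and overlapped MAX at 5 to 7 sites throughout. No paired analysis was possible because there was 1 library for each factor. The depth limits weak sites, and 1 library per factor leaves no error beyond counting.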
